A study of Mus musculus with 19 samples.

Results

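The genes described here carry or restrain cytokine signals through the JAK-STAT pathway. They were chosen by name: the SOCS-family inhibitors Cish, Socs1, Socs2 and Socs3, the transcription factors Stat3, Stat5a and Stat5b, the kinases Jak1 and Jak2, and the kinase gene Pim1. All 10 named genes had a row among the 50854 genes of the deposited count table. All 10 also passed the filter on low counts, which asked for 1 read per library on average across the 19 libraries and left 18652 genes for testing.

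The libraries are bulk RNA-seq of bone marrow cells that the labels call monocytes, from female REP mice of 8 to 12 weeks. REP mice carry fluorescent reporters for several inflammatory chemokine receptors, CCR1 and CCR2 among them, and the study asked whether monocytes with both receptors (CCR1/2+ve) differ from those with CCR2 alone (CCR2+ve). Resting CCR1/2+ve and resting CCR2+ve cells gave 4 libraries each, inflamed CCR1/2+ve cells gave 3, and inflamed CCR2+ve cells gave 4. A further 4 libraries are labelled inflamed CCR1, with no word on whether their cells carried CCR2, and are called CCR1-labelled here. Every group came from reporter mice. Inflamed mice carried a pump under the skin that released a mixture of interferon alpha, GM-CSF, IL-6 and IL-3 for 7 days. Control pumps with saline were part of the study, but the labels say only that the other mice were resting. The labels do not tell which libraries came from the same mouse or from pooled mice, so the p-values measure the spread between these libraries, which may be partly technical.

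Depth was even, with 22268658 to 30502009 reads on genes per library. Levels are given as CPM, read counts scaled to a common library size by TMM, and reads carry no molecular identifiers, so intervals from counts cover counting error only. Monocyte markers were high in 15 of the libraries: Csf1r, the receptor for M-CSF, averaged 407 to 1504 CPM in the 4 resting and inflamed CCR1/2+ve and CCR2+ve groups. The CCR1-labelled libraries went against the monocyte label, though not in every marker. Their Csf1r averaged 17.7 CPM ± 4.43 (SD, n = 4) and their Ccr2 5.81 CPM ± 2.56, while Mpo, the granule enzyme of early granulocytes and monocytes, averaged 20710 CPM. Ccr1, the gene of their label, averaged 38.0 CPM ± 4.58, below the means of 75.1 to 310 CPM in the other groups. Ly6c2 stood at 1364 to 1483 CPM, inside the 1245 to 2099 CPM of inflamed CCR2+ve libraries. Lyz2 stood at 5979 to 10620 CPM, against at least 22250 CPM in the other libraries. Of 12 monocyte markers 5 averaged above 10 CPM, where each other group had 11. Their sum was 7714 to 12340 CPM, against 30740 to 56160 CPM in the other libraries. Summed over 11 mature neutrophil markers the CCR1-labelled libraries reached 104200 to 152900 CPM, against 597 to 3188 CPM. Of these 11, Ly6g averaged 14.4, Cxcr2 35.8, S100a9 4773 and S100a8 8386 CPM. Other listed genes thus made most of the sum. Early granule markers (6 genes) summed to 55100 to 61840 CPM, against 351 to 6781 CPM. T and NK cell markers (7 genes, 1 with a mean above 10 CPM) summed to 1359 to 1705 CPM, against 3.14 to 80.4 CPM. Eosinophil markers (3 genes) summed to 38.3 to 86.07 CPM, against 0.723 to 3.40 CPM. These libraries are described last, apart from the rest.

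Cytokine receptors without enzyme activity of their own signal through JAK kinases bound to their tails, which phosphorylate STAT proteins that then enter the nucleus and bind DNA as dimers. GM-CSF and IL-3 receptors share a beta chain that works through JAK2 and STAT5, the IL-6 receptor works through gp130, JAK1 and STAT3, and the interferon alpha receptor works through JAK1 and TYK2. Cish, Socs1, Socs2 and Socs3 are known STAT target genes whose proteins bind receptors or JAKs and damp the same signal, and Pim1 is a known STAT5 and STAT3 target that encodes a survival kinase.

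STAT dimers bind the palindrome TTCNNNGAA, and a form with TTC and GAA set 4 bases apart is also known. Both read alike on the 2 strands. RefSeq promoter windows of build GRCm38.p6, from 250 bases before to 50 after a start site, were at hand for 9 of the 10 genes. Of all 32851 windows in that table, 14.6% held at least 1 match to either form and 1.39% held 2 or more. Cish had 2 matches and Socs3 had 1, each to the 3-base form, and they are shown as the only matches found. No match lay in the windows of Socs1, Stat3, Stat5a, Stat5b, Jak1, Jak2 or Pim1, which says only that these letters were not in that stretch. In the sequences, written 5′ to 3′ on the strand of the gene, capitals mark the matches.
Cish, chr9:107296655-107296684, plus strand: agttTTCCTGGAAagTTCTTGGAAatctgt
Socs3, chr11:117969453-117969616, minus strand: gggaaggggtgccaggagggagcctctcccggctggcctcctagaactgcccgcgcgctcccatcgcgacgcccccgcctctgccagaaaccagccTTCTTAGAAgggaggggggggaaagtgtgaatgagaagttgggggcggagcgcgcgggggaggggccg
The Cish matches begin at bases 1 and 12 counted from the RefSeq start, and the Socs3 match begins 154 bases before its RefSeq start. Both starts lie inside the genes as GENCODE M21 annotates them, and so does the Socs3 match. A match is a description of the sequence and not a measured binding site.

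The first question was how these genes changed with inflammation in each population. In CCR2+ve cells 5 of the 10 genes rose and 3 fell, where a call is an adjusted p below 0.05 in the quasi-likelihood test of edgeR, adjusted by Benjamini-Hochberg across the 18652 genes. Among all genes tested 21.9% rose and 25.9% fell in that comparison. In CCR1/2+ve cells 6 rose and 3 fell, beside 20.6% and 25.4% of all genes. With the study's further cutoff of at least 2-fold, 7 of the genes were called in CCR2+ve cells, beside 28.6% of all genes in either direction, and 5 in CCR1/2+ve cells, beside 28.5%. The median log2 fold change of the 10 genes was 0.82 in CCR2+ve cells and 0.92 in CCR1/2+ve cells, against -0.10 and -0.26 over all genes tested. Because these are bulk libraries, fewer cells of a type and less RNA per cell cannot be told apart. The marker sums of other cells also moved with inflammation: over 7 erythroid genes the sum was 58.0 to 295 CPM in resting and 1.25 to 4.14 CPM in inflamed CCR1/2+ve and CCR2+ve libraries, where Klf1 stood at 3 reads or fewer. Over 5 basophil and mast cell genes it was 0.0925 to 19.5 CPM in resting and 104 to 237 CPM in inflamed ones. Over 9 tissue macrophage genes it was 212 to 373 CPM in resting and 501 to 659.8 CPM in inflamed ones, and over 7 T and NK cell genes 9.21 to 80.4 and 3.14 to 6.64 CPM. Some other sums separated in 1 population only. In CCR1/2+ve cells 6 early granule genes summed to 3293 to 6781 CPM at rest and 954 to 1366 CPM when inflamed. There 12 monocyte genes gave 30740 to 43130 and 49730 to 53100 CPM, and 7 B cell genes 593 to 717 and 954 to 1657 CPM. In CCR2+ve cells 11 mature neutrophil genes gave 597 to 909.6 CPM at rest and 1243 to 1596 CPM when inflamed. Over 8 dendritic cell genes it was 223 to 346 and 94.9 to 168 CPM. The part of any of these in the results was not tested.

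**Figure D1:**
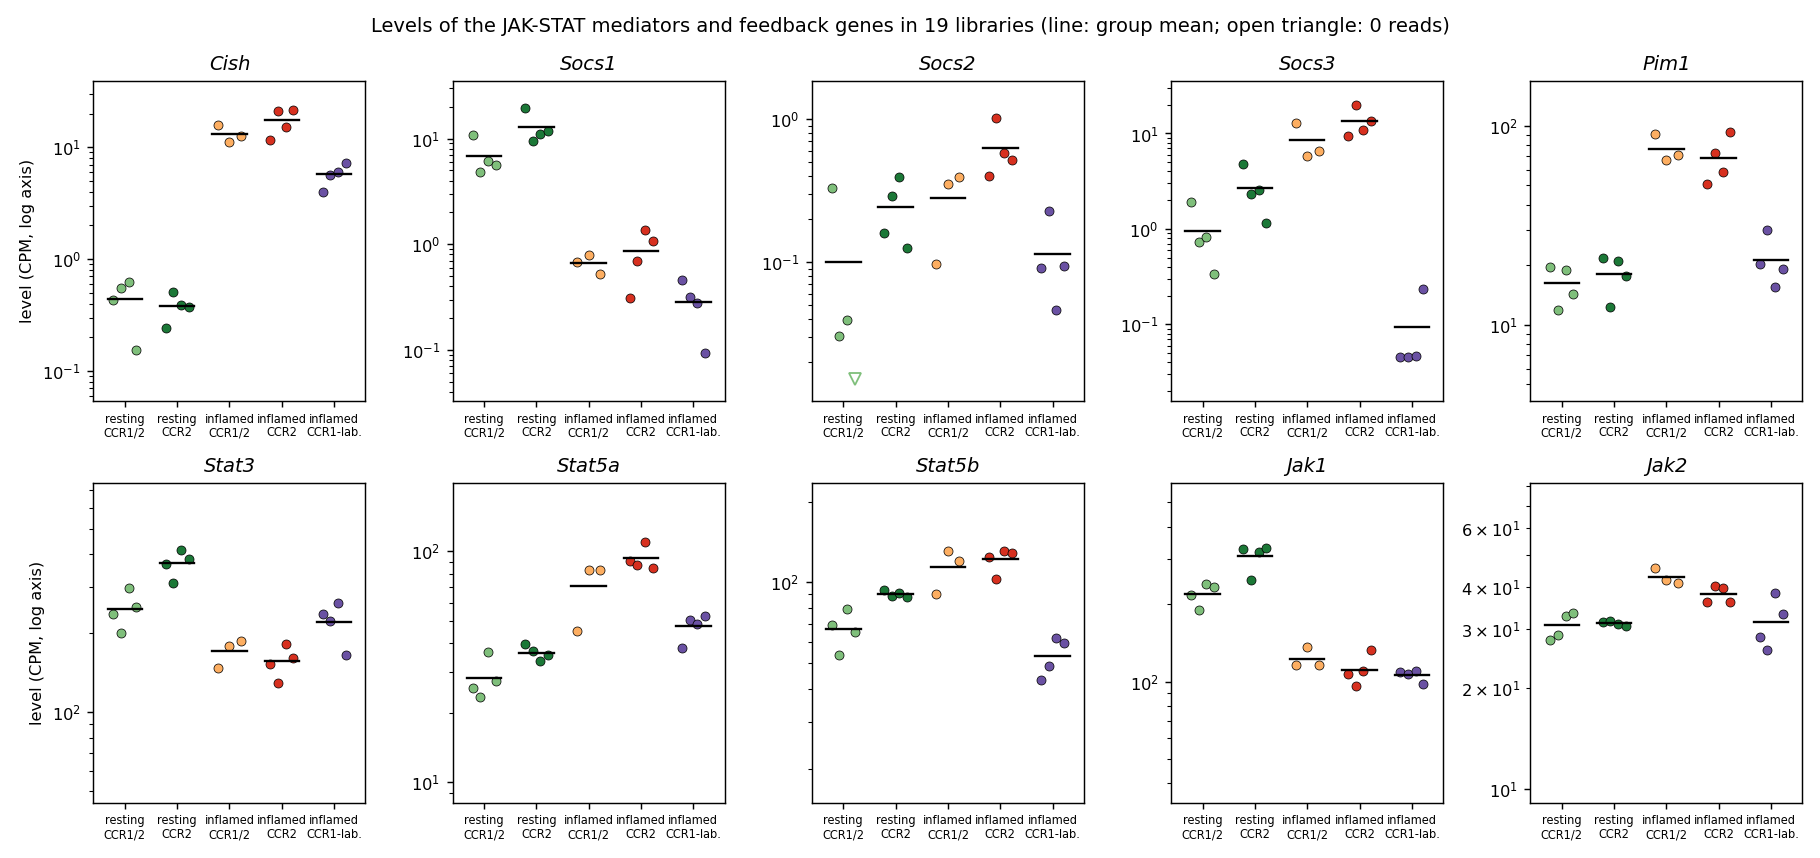
Level of each of the 10 genes in CPM (vertical log axis, a separate scale in each panel) in the 19 libraries, by group on the horizontal axis, with 1 point per library, a line at the group mean and an open triangle for a library with 0 reads. Cish, Socs3 and Pim1 sit higher and Socs1, Stat3 and Jak1 lower in the inflamed than in the resting CCR1/2+ve and CCR2+ve libraries, with no overlap in either population, and Socs3 is near 0 in the CCR1-labelled libraries.

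Cish, the inhibitor named for its induction by cytokines and a known STAT5 target, changed most of the 10 genes. In resting CCR2+ve libraries it stood at 0.241, 0.502, 0.391 and 0.373 CPM, from 6 to 14 reads, and in inflamed ones at 11.7, 21.0, 15.04 and 21.7 CPM. The groups were far apart, and the fitted rise was 43.0-fold (log2 5.43 ± 0.29 SE, adjusted p = 8.7e-10, edgeR). CCR1/2+ve cells went from 0.428, 0.549, 0.626 and 0.154 CPM at rest to 15.8, 11.1 and 12.7 CPM when inflamed. That rise was 27.4-fold (log2 4.77 ± 0.35 SE, edgeR adjusted p = 5.38e-07), again with every inflamed library above every resting one. Cish (ENSMUSG00000032578, chr9:107296026-107302784, plus strand) shares 11.5% of its exonic bases with the antisense genes Gm17041 and Gm17040. The counting strand is not given in the sources used here. Gm17041 was at 0 in all libraries and Gm17040 did not exceed 0.194 CPM in any, which cannot show whether reads in the shared bases were left uncounted.

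Socs3, the inhibitor of gp130 signals, also rose in both populations. Resting CCR2+ve libraries held 4.78, 2.33, 2.54 and 1.16 CPM, and inflamed ones 9.39, 19.7, 10.8 and 13.6 CPM. Every inflamed library was above the highest resting one, and the rise was 4.68-fold (log2 2.23 ± 0.34 SE, edgeR adjusted p = 7.26e-05). Levels in CCR1/2+ve cells were 1.91, 0.732, 0.822 and 0.339 CPM at rest and 13.0, 5.80 and 6.59 CPM when inflamed. Here the rise was 8.00-fold (log2 2.999 ± 0.52 SE, edgeR adjusted p = 0.000888), and the groups again did not overlap. The size of this rise was loosely fixed: without resting CCR1/2+ve replicate 1 the log2 was 3.66, and with a GC content correction and the replicate block together it was 3.98. Socs3 (ENSMUSG00000053113) lies at chr11:117966079-117970047 on the minus strand and shares no exonic base with another gene.

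Socs1, which blocks JAK catalytic activity and restrains interferon signals, went the other way. It stood at 19.5, 9.51, 11.1 and 11.8 CPM in resting CCR2+ve libraries and at 0.310, 0.698, 1.35 and 1.07 CPM in inflamed ones, from 7 to 28 reads. The fall was 15.8-fold (log2 -3.98 ± 0.36 SE, edgeR adjusted p = 2.43e-07). Among CCR1/2+ve libraries it went from 10.8, 4.79, 6.18 and 5.67 CPM to 0.678, 0.799 and 0.527 CPM. That fall was 11.2-fold (log2 -3.49 ± 0.37 SE, edgeR adjusted p = 1.13e-05), and in both populations every inflamed library lay below every resting one. Socs1 (ENSMUSG00000038037) lies at chr16:10782240-10785536 on the minus strand, with no shared exonic base.

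Socs2, which restrains growth hormone and other STAT5 signals, was close to the limit of detection. Its reads ran from 0 to 22 per library, and its mean was 0.0998 CPM in resting CCR1/2+ve, 0.241 in resting CCR2+ve, 0.281 in inflamed CCR1/2+ve and 0.630 in inflamed CCR2+ve libraries. The inflamed CCR2+ve libraries (9, 22, 12 and 12 reads) were above the resting ones (4, 8, 10 and 3 reads) in CPM without overlap, by 2.43-fold (log2 1.28 ± 0.53 SE), but the test missed the threshold (edgeR adjusted p = 0.0595). Leaving out resting CCR2+ve replicate 3 or inflamed CCR2+ve replicate 1 brought it under the threshold (edgeR adjusted p = 0.0347 and 0.0489). The CCR1/2+ve groups overlapped, with 10, 1, 1 and 0 reads at rest and 2, 7 and 9 when inflamed. The fitted difference was a log2 of 1.32 ± 1.11 SE (edgeR adjusted p = 0.364), and without resting replicate 1 it was 3.33 (edgeR adjusted p = 0.0391). At these reads a difference in Socs2 was not firmly measurable in CCR1/2+ve cells.

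Within the SOCS family the make-up of the messages turned over, which can be read only after division by length. Lengths are the merged exonic bases of GENCODE M21, on the build of the files but not in the release the counts were made with. They merge all annotated transcripts of a gene and can exceed the length of 1 message. They were 6.42 kb for Cish, 2.91 kb for Socs1, 2.89 kb for Socs3 and 9.53 kb for Socs2. A shorter length for Cish would raise its share, so the shares and the order of Socs3 and Cish depend on this choice. Socs1 made 81.7% ± 5.26 (SD, n = 4) of the summed CPM per kb of the 4 genes in resting CCR2+ve libraries and 3.93% ± 2.31 in inflamed ones. Socs3 went from 16.5% ± 5.14 to 59.9% ± 4.69 and Cish from 1.22% ± 0.585 to 35.3% ± 3.40. Socs1 made 85.9% ± 4.96 in resting and 4.69% ± 1.86 (n = 3) in inflamed CCR1/2+ve libraries. The shares of Socs1 did not overlap between the conditions in either population. The summed level itself overlapped, at 4.19 to 8.40 CPM per kb in resting and 5.22 to 10.4 in inflamed CCR2+ve libraries.

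**Figure D2:**
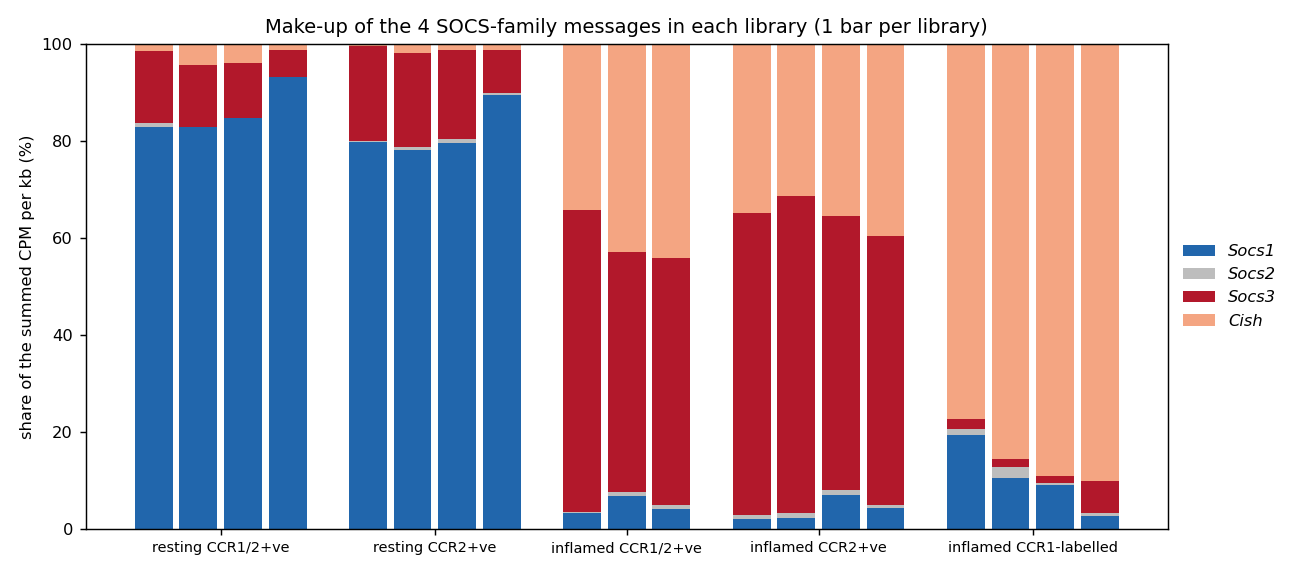
Share of Socs1, Socs2, Socs3 and Cish in their summed CPM per kb of merged exon (vertical axis, %), with 1 stacked bar per library and the libraries grouped along the horizontal axis. Socs1 makes 78.1% to 93.2% of the sum in the 8 resting libraries and 2.04% to 7.04% in the 7 inflamed CCR1/2+ve and CCR2+ve libraries, where Socs3 and Cish make most of it, and Cish makes 77.4% to 90.2% in the CCR1-labelled libraries.

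Pim1, which encodes a serine/threonine kinase that supports survival and growth downstream of cytokines, rose in both populations. Resting CCR2+ve libraries held 21.5, 12.2, 20.8 and 17.5 CPM, and inflamed ones 50.7, 72.9, 58.7 and 93.0 CPM. Between these non-overlapping groups the rise was 3.65-fold (log2 1.87 ± 0.20 SE, edgeR adjusted p = 2.05e-06). Levels in CCR1/2+ve cells went from 19.5, 11.8, 18.8 and 14.2 CPM to 91.1, 67.2 and 71.2 CPM, a rise of 4.34-fold (log2 2.12 ± 0.17 SE, edgeR adjusted p = 1.4e-06). No inflamed library came near a resting one. Pim1 (ENSMUSG00000024014, chr17:29490753-29496112, plus strand) shares 14.5% of its exonic bases with the antisense gene Gm26885, which did not exceed 0.133 CPM in any library. That low count cannot show whether reads in the shared bases were left uncounted.

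The 3 STAT genes did not move together. Stat3, the main STAT of IL-6 signals, fell, and Stat5a and Stat5b, the STATs of GM-CSF and IL-3 signals, rose. Stat3 stood at 367, 312, 416 and 385 CPM in resting CCR2+ve libraries and at 153, 129, 182 and 160.5 CPM in inflamed ones. Its fall was 2.48-fold (log2 -1.31 ± 0.12 SE, edgeR adjusted p = 4.83e-07). It went from 237, 200.2, 297 and 252 CPM to 147, 179 and 187 CPM in CCR1/2+ve cells, a fall of 1.57-fold (log2 -0.65 ± 0.13 SE, edgeR adjusted p = 0.00126). In both populations all inflamed libraries lay below all resting ones. Stat3 (ENSMUSG00000004040) lies at chr11:100885098-100939540 on the minus strand.

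Stat5a rose from 39.6, 36.9, 33.5 and 35.8 CPM in resting CCR2+ve libraries to 90.7, 87.4, 110 and 84.4 CPM in inflamed ones. That was 2.43-fold (log2 1.28 ± 0.12 SE, edgeR adjusted p = 2.74e-07), with a wide gap between the groups. The rise in CCR1/2+ve cells was 2.29-fold (log2 1.20 ± 0.22 SE, edgeR adjusted p = 0.00154), from 25.7, 23.4, 36.7 and 27.5 CPM to 45.3, 82.9 and 83.3 CPM. The 45.3 CPM of replicate 2 stood apart from the other 2 inflamed libraries and still lay above all 4 resting ones. Stat5b moved less, to 1.28 times its resting level in CCR2+ve cells (log2 0.36 ± 0.11 SE, edgeR adjusted p = 0.0127) and 1.56 times in CCR1/2+ve cells (log2 0.64 ± 0.15 SE, edgeR adjusted p = 0.00378). Its levels ran from 87.9 to 93.7 CPM in resting and from 103 to 130.4 CPM in inflamed CCR2+ve libraries, a narrow but complete separation. With a correction for GC content and length the Stat5b difference in CCR2+ve cells was a log2 of 0.16 and missed the threshold (edgeR adjusted p = 0.183). Stat5a (ENSMUSG00000004043, chr11:100859351-100885169, plus strand) and Stat5b (ENSMUSG00000020919, chr11:100780731-100850724, minus strand) are neighbours of Stat3 on chromosome 11. Where Stat3 and Stat5a meet tail to tail, 0.8% of the exonic bases of Stat3 and 1.0% of those of Stat5a overlap. Without the strand, reads there cannot be assigned to 1 of the genes.

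The balance of the STAT5 genes was read as the ratio of Stat5a to Stat5b, each per kb of exon. It was 0.313 ± 0.0194 (SD, n = 4) in resting and 0.597 ± 0.0727 in inflamed CCR2+ve libraries, and 0.328 ± 0.0296 and 0.474 ± 0.0781 (n = 3) in CCR1/2+ve ones. Every inflamed library had a higher ratio than every resting library of its population. A two-sided exact permutation test gave p = 0.0286 in CCR2+ve cells, the smallest that 4 against 4 allows, and 0.0571 in CCR1/2+ve cells, the smallest that 3 against 4 allows. Adjusted over the 6 comparisons of this ratio both were 0.114, so neither passed. Between the populations the exact permutation p was 0.4 at rest and 0.114 when inflamed.

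Of the kinases, Jak1, shared by the interferon and gp130 receptors, fell, and Jak2, the kinase of the GM-CSF and IL-3 beta chain, was called in CCR1/2+ve cells, where it rose. Jak1 stood at 329, 249, 321 and 332 CPM in resting CCR2+ve libraries and at 107, 96.2, 109.9 and 132 CPM in inflamed ones. The fall was 2.89-fold (log2 -1.53 ± 0.13 SE, edgeR adjusted p = 1.26e-07). In CCR1/2+ve cells Jak1 went from 218, 191, 239.5 and 233 CPM to 116, 136 and 116 CPM, a fall of 1.96-fold (log2 -0.97 ± 0.10 SE, edgeR adjusted p = 7.7e-06). All resting libraries were above all inflamed ones in both populations. Jak2 ran from 27.9 to 33.7 CPM in the 8 resting libraries, from 36.2 to 40.4 CPM in inflamed CCR2+ve and from 41.3 to 45.6 CPM in inflamed CCR1/2+ve libraries. It rose 1.28-fold in CCR1/2+ve cells (log2 0.35 ± 0.10 SE, edgeR adjusted p = 0.0134), but not with the replicate number as a block (edgeR adjusted p = 0.0772). In CCR2+ve cells the groups did not overlap, but the log2 of 0.21 ± 0.10 SE missed the threshold (edgeR adjusted p = 0.102). DESeq2 put that difference under it (adjusted p = 0.0243), and so did a correction for GC content, at a log2 of 0.46. Jak1 (ENSMUSG00000028530) lies at chr4:101152367-101265282 on the minus strand and Jak2 (ENSMUSG00000024789) at chr19:29251828-29313080 on the plus strand.

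**Figure D3:**
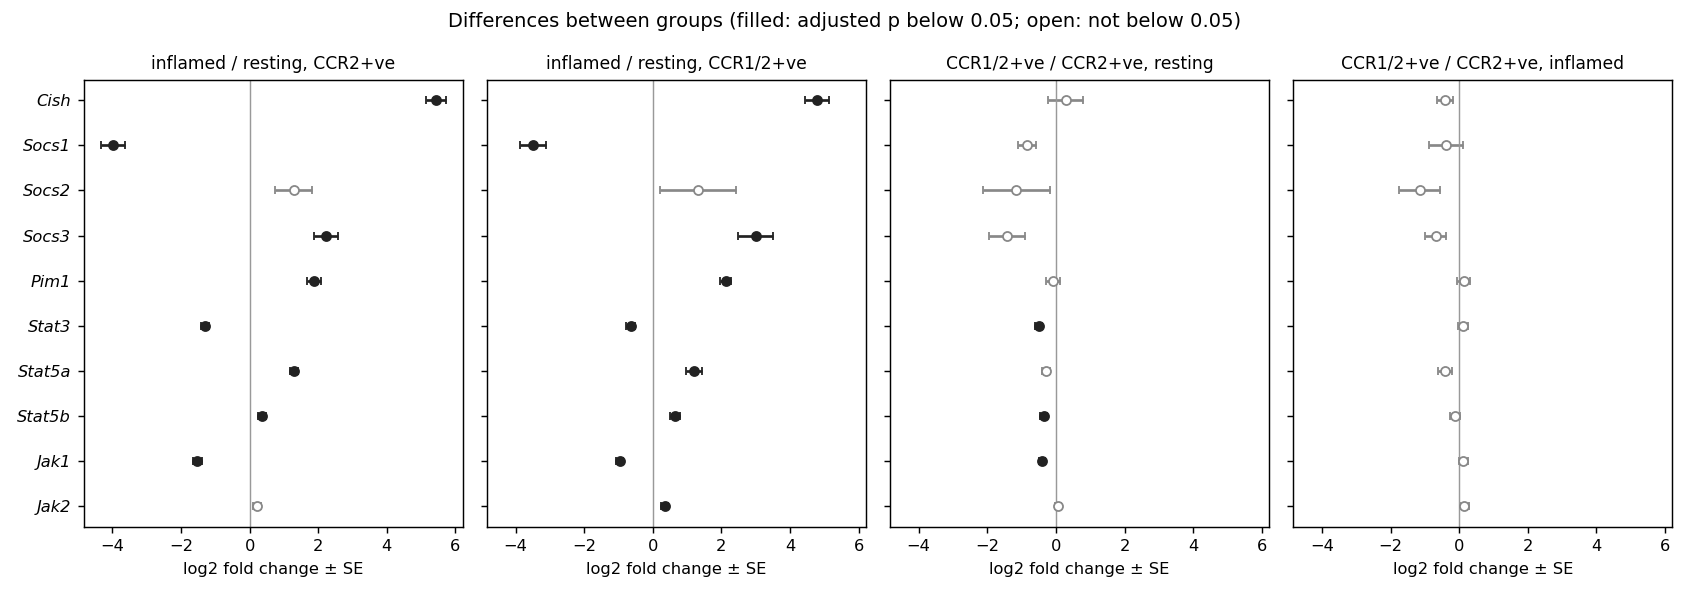
Fitted log2 fold change with its SE (horizontal axis) for each of the 10 genes (rows) in 4 comparisons, with filled points for an adjusted p below 0.05 and open points for the rest. Cish has the largest rise with inflammation, log2 5.43 in CCR2+ve and 4.77 in CCR1/2+ve cells, Socs1 the largest fall, and no gene is called between the inflamed populations.

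The next question was whether the populations differed at rest. Resting CCR1/2+ve cells had less of 3 of the 10 than resting CCR2+ve cells and more of none, where 8.44% of all genes tested were lower and 8.44% higher. None of the 3 reached 2-fold, a cutoff that 4.25% of all genes passed in either direction. Stat3 was 1.42-fold lower (log2 -0.51 ± 0.11 SE, edgeR adjusted p = 0.00613), Jak1 1.32-fold lower (log2 -0.41 ± 0.10 SE, edgeR adjusted p = 0.0116) and Stat5b 1.28-fold lower (log2 -0.36 ± 0.10 SE, edgeR adjusted p = 0.0239). For each of these, all 4 CCR1/2+ve libraries lay below all 4 CCR2+ve libraries. The Stat5b call was lost on leaving out CCR1/2+ve replicate 2 or 4 or CCR2+ve replicate 1 or 3, with edgeR adjusted p from 0.054 to 0.0628. Socs1 was 1.79-fold lower (log2 -0.84 ± 0.27 SE) and Socs3 2.69-fold lower (log2 -1.43 ± 0.51 SE), and both missed the threshold (edgeR adjusted p = 0.0528 and 0.0785).

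Same-numbered resting libraries of the populations deviated together from their group means, so the numbers were read as pairs. With the replicate number as a block, 5 genes were called in place of 3. The added genes were Socs1 (log2 -0.85, edgeR adjusted p = 0.000103) and Socs3 (log2 -1.49, edgeR adjusted p = 0.000557). In each of the 4 pairs the CCR1/2+ve library held less Socs1 and less Socs3 than its CCR2+ve partner. For Socs1 the pairs were 10.8 and 19.5, 4.79 and 9.51, 6.18 and 11.1, and 5.67 and 11.8 CPM. Leaving out resting CCR1/2+ve replicate 1 from the unpaired fit also gave 5 calls, with Socs1 at a log2 of -1.16 (edgeR adjusted p = 0.00652) and Socs3 at -2.03 (edgeR adjusted p = 0.0169). Cish (log2 0.29 ± 0.51 SE), Socs2 (-1.15 ± 0.97), Stat5a (-0.29 ± 0.12), Jak2 (0.05 ± 0.08) and Pim1 (-0.09 ± 0.19) were not called, which does not show that they were equal. Stat5a passed without resting CCR1/2+ve replicate 3 (log2 -0.43, edgeR adjusted p = 0.0146). Of the 12 Socs2 reads in resting CCR1/2+ve libraries, replicate 1 held 10, and without that library its log2 was -3.12 (edgeR adjusted p = 0.0678). Summed over the 11 mature neutrophil markers these libraries held 2460 to 3129 CPM in CCR1/2+ve and 597 to 909.6 CPM in CCR2+ve cells, where Mmp9 stood at 3 reads or fewer. The monocyte sum was 30740 to 43130 against 45550 to 51490 CPM. Over 6 early granule markers it was 3293 to 6781 against 445 to 1653 CPM, over 8 dendritic cell markers 81.2 to 129 against 223 to 346 CPM, and over 7 T and NK cell markers 30.4 to 80.4 against 9.21 to 14.9 CPM. Mitochondrial reads made 0.585% to 0.987% in CCR1/2+ve and 0.347% to 0.590% in CCR2+ve libraries, and the CCR1/2+ve library was the higher in all 4 pairs. The part of these in the lower Stat3, Jak1 and Stat5b levels was not tested.

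Between the inflamed populations none of the 10 genes was called by edgeR, none had an unadjusted p below 0.05, and DESeq2 called 0. Of all genes tested 0.123% were higher in inflamed CCR1/2+ve cells, 0.0643% were lower, and 0.145% passed with at least 2-fold. The differences with the smallest unadjusted p were those of Socs3 (log2 -0.69 ± 0.32 SE), Stat5a (-0.41 ± 0.21), Socs2 (-1.15 ± 0.60) and Cish (-0.42 ± 0.23), CCR1/2+ve relative to CCR2+ve. Stat5a was at 45.3, 82.9 and 83.3 CPM in CCR1/2+ve libraries and at 84.4 CPM or more in CCR2+ve ones, so these groups did not overlap. Socs2, lower in CCR1/2+ve libraries, and Jak2, higher at a log2 of 0.15 ± 0.12 SE, did not overlap either. These 3 differences were not called.

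Whether inflammation acted unequally on the populations was tested as an interaction over the 15 libraries of those 4 groups. No member was called by edgeR or by DESeq2, 2 had an unadjusted p below 0.05, and 0.397% of all genes passed. Those 2 were Stat3, whose fitted fall was smaller in CCR1/2+ve cells by a log2 of 0.62 ± 0.19 SE (edgeR adjusted p = 0.158), and Jak1, smaller by 0.52 ± 0.17 SE (edgeR adjusted p = 0.19). With the replicate number as a block Stat3 passed (log2 0.62, edgeR adjusted p = 0.0146). That block also joins resting with inflamed libraries of the same number. Correlations of their deviations from the group means were -0.269 to 0.235 in CCR2+ve and 0.0715 to 0.196 in CCR1/2+ve cells. Between the inflamed populations they were -0.271 to 0.464, so the data did not bear out this pairing. The comparisons share libraries: a level in resting CCR1/2+ve cells enters the resting comparison, the inflammation comparison and the interaction alike. Stat3 and Jak1 at rest were lower in CCR1/2+ve cells, while their inflamed levels differed by a log2 of 0.12 ± 0.14 and 0.12 ± 0.13.

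Set side by side per kb of exon, the order of the levels changed with inflammation. The place of a gene in this order depends on its merged exonic length, such as 9.53 kb for Socs2 and Stat3 and 6.42 kb for Cish. In resting CCR2+ve libraries Jak1 (42.6 CPM per kb) and Stat3 (38.8) led and overlapped each other, followed by Stat5b (16.3). Next came Jak2 (6.23), Pim1 (5.36), Stat5a (5.11) and Socs1 (4.45), each overlapping its neighbour, and below them Socs3 (0.935), Cish (0.0587) and Socs2 (0.0253), of which the last 2 overlapped. In inflamed CCR2+ve libraries Stat5b (21.96 CPM per kb), Pim1 (20.5), Stat3 (16.4), Jak1 (15.4) and Stat5a (13.1) formed a run in which each overlapped the next. Jak2 (7.60) stood alone below it, and Socs3 (4.63) and Cish (2.703), which overlapped, were followed by Socs1 (0.296) and Socs2 (0.0661), which overlapped as well. Socs1 thus went from the level of the kinase Jak2 and of Stat5a to a mean below Socs3 and Cish. Only Socs2, the rarest of the 10, had a lower mean. In each inflamed CCR2+ve library Socs1 was above Socs2. The groups overlapped only because Socs1 in replicate 1 (0.1066 CPM per kb) lay just below Socs2 in replicate 2 (0.1074).

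In the CCR1-labelled libraries, whose markers are mostly not those of monocytes, 7 of the genes were lower than in inflamed CCR2+ve libraries and 1 was higher. Of all genes 25.4% were lower and 22.7% higher, and 31.3% passed with at least 2-fold, as did 6 of the 10 genes. Against inflamed CCR1/2+ve libraries 5 were lower and none higher, beside 23.0% and 20.2% of all genes, and 4 passed with at least 2-fold, beside 27.7%. Both comparisons use the same CCR1-labelled libraries. Cell type and receptor label cannot be told apart in them.

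Socs3 was near the limit of detection there, with 1, 1, 1 and 5 reads, or 0.0454, 0.0451, 0.0462 and 0.235 CPM. Its 8 reads in all, against 1176 in the inflamed CCR2+ve libraries, gave a level 145 times lower, with a 95% exact interval of 73.6 to 338 for counting error. Against inflamed CCR1/2+ve libraries, with 534 reads, it was 91.6 times lower (46.2 to 213). Socs3 passed the test in both comparisons (log2 -7.09 and -6.42, edgeR adjusted p = 3.2e-10 and 1.3e-07). CCR1-labelled replicate 4 held 5 of the 8 reads, and without it the log2 was -8.02 and -7.35. Cish stood at 4.00, 5.69, 6.05 and 7.29 CPM, where the 8 resting libraries had at most 0.626 CPM. It was 3.01-fold lower than in inflamed CCR2+ve libraries (log2 -1.59 ± 0.22 SE, edgeR adjusted p = 1.45e-05) and 2.29-fold lower than in inflamed CCR1/2+ve ones (log2 -1.19 ± 0.21 SE, edgeR adjusted p = 0.000346). Cish made 85.6% ± 5.76 (SD, n = 4) of the SOCS-family sum per kb in these libraries, and the sum itself was only 0.804 to 1.26 CPM per kb.

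Pim1 stood at 20.2, 29.9, 15.5 and 18.9 CPM in the CCR1-labelled libraries, 3.24-fold below inflamed CCR2+ve (log2 -1.70 ± 0.23 SE, edgeR adjusted p = 2.61e-05) and 3.60-fold below inflamed CCR1/2+ve libraries (log2 -1.85 ± 0.21 SE, edgeR adjusted p = 2.69e-05). Stat5b was lower in both comparisons as well, at a log2 of -1.19 ± 0.13 SE and -1.10 ± 0.16 (edgeR adjusted p = 7.29e-07 and 6.53e-05). Stat5a was 1.96-fold below inflamed CCR2+ve libraries (log2 -0.97 ± 0.13 SE, edgeR adjusted p = 6.79e-06), and its log2 of -0.58 ± 0.22 SE against inflamed CCR1/2+ve libraries missed the threshold (edgeR adjusted p = 0.0552). Without inflamed CCR1/2+ve replicate 2 that last difference was -0.83 and passed (edgeR adjusted p = 6.26e-05). The libraries of Pim1 and Stat5b did not overlap with either inflamed group.

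Stat3 was the gene that was higher than in inflamed CCR2+ve libraries (log2 0.51 ± 0.14 SE, edgeR adjusted p = 0.00686), at 237, 223, 260.5 and 165 CPM, although the lowest of these lay inside the range of the other group. Its log2 of 0.37 ± 0.15 SE against inflamed CCR1/2+ve libraries missed the threshold (edgeR adjusted p = 0.0729), and without CCR1-labelled replicate 4 it was 0.49 and passed (edgeR adjusted p = 0.00668). Socs1 held 10, 7, 6 and 2 reads and was lower than in inflamed CCR2+ve libraries (log2 -1.56 ± 0.56 SE, edgeR adjusted p = 0.0284), with overlapping groups. Same-numbered libraries of those groups deviated together only weakly (correlation 0.108 to 0.206). With the replicate number as a block 7 genes were called in place of 8, since Socs1 was lost (edgeR adjusted p = 0.0612). Leaving out CCR1-labelled replicate 3 or 4, or inflamed CCR2+ve replicate 3 or 4, also lost it (edgeR adjusted p = 0.0574 to 0.102). Socs2, with 2, 5, 1 and 2 reads against 9 to 22, was lower than in inflamed CCR2+ve libraries (edgeR adjusted p = 0.00344), by 5.44 times over the summed reads. Jak2 was lower against inflamed CCR1/2+ve libraries (log2 -0.44 ± 0.14 SE, edgeR adjusted p = 0.0175), a call lost without CCR1-labelled replicate 1 or 2 (edgeR adjusted p = 0.086 and 0.0533) and with the replicate block (0.0665). Against inflamed CCR2+ve libraries its log2 of -0.27 was not called, but it passed without CCR1-labelled replicate 3 (-0.37, edgeR adjusted p = 0.046), with a correction for GC content and length (-0.32, edgeR adjusted p = 0.0498), and with a GC content correction and the replicate block together (-0.33, edgeR adjusted p = 0.0385). Jak1 was not called in either comparison, at a log2 of -0.07 ± 0.12 and -0.21 ± 0.11 SE.

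The rest of the pathway was followed in 5 lists of other genes, 67 in all, of which 62 were tested. With inflammation 17 rose and 29 fell in CCR2+ve cells, where 21.9% of all genes tested rose and 25.9% fell. In CCR1/2+ve cells 23 rose and 25 fell, beside 20.6% and 25.4% of all genes. Of 6 further kinases, STATs and partners, 3 rose and 1 fell in CCR2+ve cells and 4 rose in CCR1/2+ve cells, led by Tyk2, the second kinase of the interferon alpha receptor (log2 2.50 ± 0.11 SE and 2.15 ± 0.25), and Stat6, the STAT of IL-4 signals (1.22 ± 0.10 and 1.79 ± 0.11). The median log2 change of this list was 0.76 and 1.42.

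Among 7 receptor chains for the infused cytokines, 2 rose and 4 fell in CCR2+ve cells, and 2 rose and 3 fell in CCR1/2+ve cells. Il6st, the gene of gp130, was close to the limit of detection, with means of 0.0237 to 0.133 CPM in the 5 groups. The beta chains Csf2rb, shared by GM-CSF, IL-3 and IL-5, and Csf2rb2, the mouse IL-3 form, both rose (Csf2rb log2 1.41 ± 0.10 SE and 1.85 ± 0.09, Csf2rb2 2.47 ± 0.13 and 2.77 ± 0.17). These paralogs are alike in sequence, and the study kept only reads with 1 place in the genome, so reads that fit both were not counted. In CCR2+ve cells the GM-CSF alpha chain Csf2ra fell by 3.79 ± 0.11 SE on the log2 scale and the interferon chain Ifnar2 fell by 2.05 ± 0.14. In CCR1/2+ve cells the IL-6 receptor Il6ra fell by 1.82 ± 0.08 and Ifnar2 fell by 1.76 ± 0.12. Both Csf2ra and Il6ra had lower inflamed levels in the other population as well. Csf2ra averaged 634 CPM in resting and 40.9 CPM in inflamed CCR1/2+ve libraries. Il6ra averaged 436 CPM in resting and 115 CPM in inflamed CCR2+ve libraries. No interaction was called in this list. The GM-CSF receptor chains Csf2ra and Csf2rb thus moved in opposite directions. The other interferon alpha chain, Ifnar1, had lower means when inflamed, as Ifnar2 did. It averaged 199.9 CPM ± 17.6 (SD) in resting and 117 ± 27.2 in inflamed CCR2+ve libraries. In CCR1/2+ve libraries it averaged 139 ± 10.1 and 99.5 ± 52.4 CPM.

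Among 12 other JAK-coupled receptor chains, 5 rose and 4 fell in CCR2+ve cells, and 7 rose and 2 fell in CCR1/2+ve cells. The IL-4 receptor Il4ra rose most clearly (log2 3.37 ± 0.12 SE and 3.52 ± 0.18) and the interferon gamma chain Ifngr2 fell most clearly (-3.30 ± 0.14 and -2.93 ± 0.12). Other inhibitors and phosphatases numbered 15, with 4 up and 8 down in CCR2+ve and 5 up and 8 down in CCR1/2+ve cells. Pias4, a SUMO ligase, fell (log2 -2.93 ± 0.12 SE and -2.90 ± 0.14), and Ptpn6, the phosphatase SHP-1, rose (0.57 ± 0.10 and 0.89 ± 0.09).

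Of 22 other STAT target genes, 3 rose and 12 fell in CCR2+ve cells and 5 rose and 12 fell in CCR1/2+ve cells, with a median log2 change of -1.35 and -1.03. Bcl2l1, the survival gene for BCL-xL, rose in both (log2 1.68 ± 0.13 SE and 1.63 ± 0.13). Gadd45g rose in CCR2+ve cells (2.17 ± 0.28) and Il1rn in CCR1/2+ve cells (1.31 ± 0.14). Cebpd fell in both (-5.51 ± 0.18 and -5.68 ± 0.15), Junb in CCR2+ve cells (-3.05 ± 0.12) and Ccnd3 in CCR1/2+ve cells (-1.595 ± 0.10). Unlike Pim1, the listed genes Pim2 and Pim3 had lower means when inflamed. Pim2 averaged 6.10 CPM in resting and 1.44 CPM in inflamed CCR2+ve libraries, and 6.23 and 1.33 CPM in CCR1/2+ve ones. Pim3 averaged 9.12 and 1.56 CPM, and 7.49 and 1.10 CPM. At rest 24 of the 62 were lower in the CCR1/2+ve population, beside 8.44% of all genes, and 2 were higher, also beside 8.44%. Those 2 were Id1 (log2 0.85 ± 0.09 SE) and Ccnd2 (1.39 ± 0.35). Between the inflamed populations none of the 62 was called by edgeR, 9 had an unadjusted p below 0.05, and DESeq2 called 1, Id2. Ccnd2, the cyclin D2 gene, was the only gene of the lists with a called interaction (log2 -2.26 ± 0.49 SE, edgeR adjusted p = 0.0498). That call was lost on leaving out 11 of the 15 libraries in turn (edgeR adjusted p from 0.0264 to 0.1497 over the 15 fits). In the CCR1-labelled libraries 36 of the 62 were lower and 17 higher than in inflamed CCR2+ve libraries, beside 25.4% and 22.7% of all genes. Against inflamed CCR1/2+ve libraries 35 were lower and 14 higher, beside 23.0% and 20.2%.

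**Figure D4:**
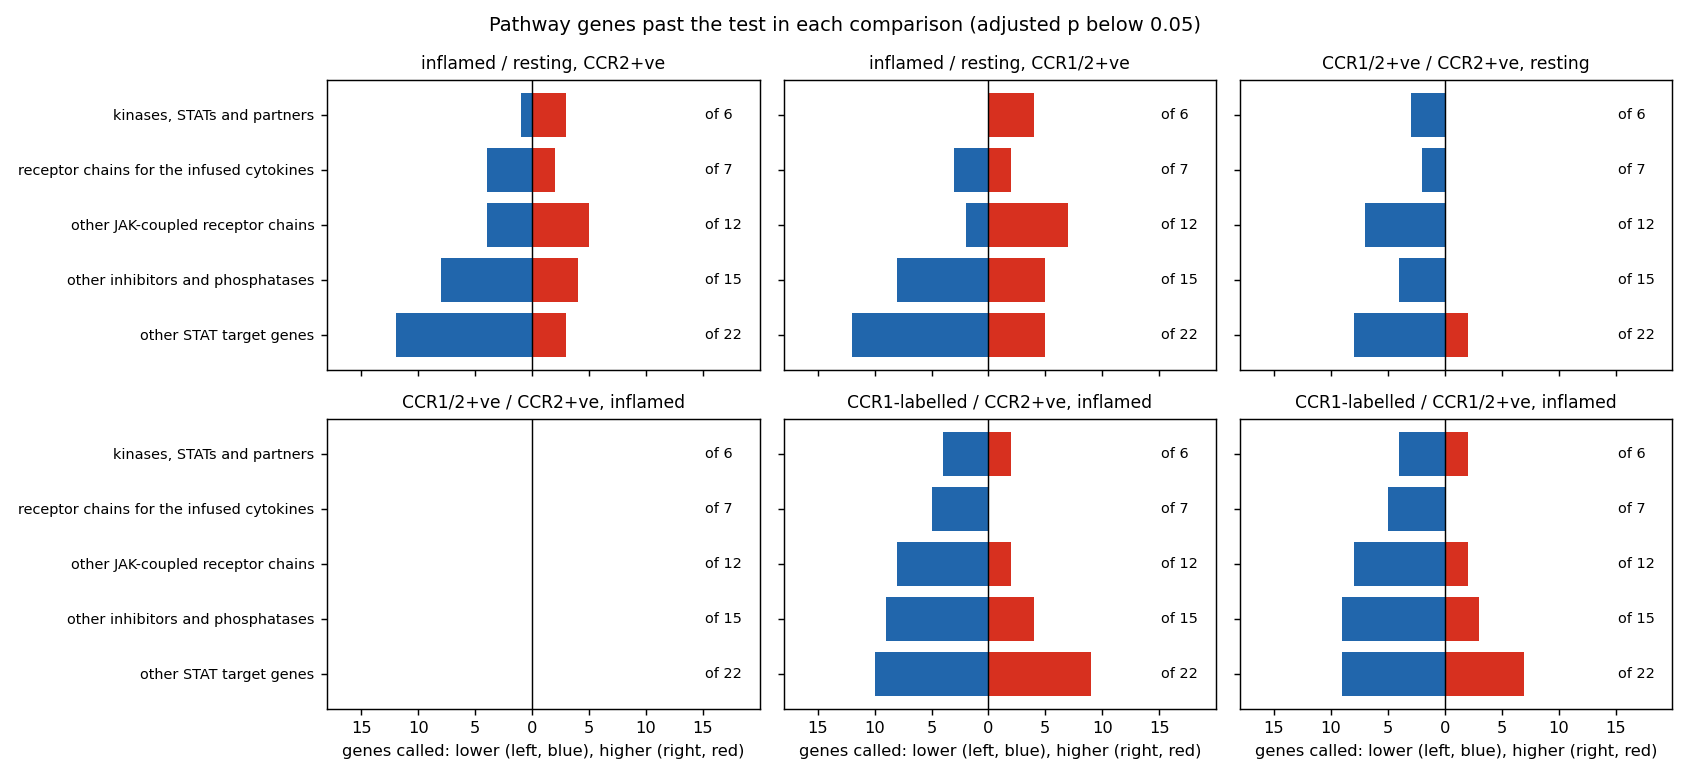
Number of genes lower (left, blue) and higher (right, red) at an adjusted p below 0.05 (horizontal axis) in 5 lists of other pathway genes (rows), in 6 comparisons, with the number tested at the right. Calls in both directions appear with inflammation in both populations, nearly all calls at rest are lower in CCR1/2+ve cells, and none appears between the inflamed populations by edgeR.

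As a description of pattern, each SOCS-family gene and Pim1 was set against 7674 other genes that averaged at least 10 CPM, by Pearson r of log2 CPM over the 19 libraries, which share 5 groups. The genes most like Cish were Mroh1 (r = 0.986), Pcsk7 (0.984) and Kdm5c (0.983). Like Socs3 were Clec4n (0.976), Dhx58 (0.968) and Cd300ld (0.967), and like Socs1 Gpcpd1 (0.981), Fam53a (0.978) and Tmem184c (0.976). Among the 3 genes most like Pim1 were the beta chain genes Csf2rb (0.965) and Csf2rb2 (0.962). For Socs2, with its few reads, the highest were Coq8b (0.819), Limk1 (0.795) and Irf3 (0.794).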

How the data were processed

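Bone marrow cells of REP mice were sorted by their chemokine receptor reporters and sequenced in pairs of reads. The authors aligned the reads with STAR 2.7.10a to build GRCm38 (Ensembl genes), per the labels and the study's methods, and deposited 1 table of raw read counts per gene, with no normalization. The strand setting of the counting is not given in the sources used here. Of the table's columns, 1 matched no sample by its name and was not used. Groups came from the sample titles.

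Genes averaging 1 read or more per library over all 19 were fitted with edgeR 4.0.16 (R 4.3.3, TMM, robust quasi-likelihood) on the 2 groups compared, without covariates, and for the interaction on the 4 groups named in the text. DESeq2 1.42.0 was an alternative. Fold changes are log2, and SEs are the log2 fold change over the root of F. The script was tested on simulated data. Alternatives were DESeq2, RLE scaling, no filter, filterByExpr, all 19 libraries in 1 fit, no robust estimation, the replicate block and each library left out. GC corrections, chosen after seeing the data, had a GC value for 99.82% of tested genes.

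Whether same-numbered libraries pair was read from the correlation of their deviations from the group means over 8878 genes of at least 5 CPM. It was 0.288 to 0.536 for the 4 resting pairs and 0.108 to 0.206 for the 4 pairs of CCR1-labelled and inflamed CCR2+ve libraries, all above 0.1, and in each other comparison at least 1 pair was below 0.1. Differently numbered libraries gave -0.374 to 0.182 at rest and -0.202 to 0.08 between CCR1-labelled and inflamed CCR2+ve libraries. Same-numbered inflamed and resting CCR1/2+ve libraries gave 0.0715 to 0.196, so the cutoff of 0.1 parted nearly equal ranges. The pairing is thus read from the data and not from the labels.

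The 10 genes, the pathway lists and the markers were chosen with earlier results of these data known. All 10 genes are named in each comparison. Of each pathway list at most the 2 called genes with the smallest p in each direction are named, and of the likeness the 3 genes with the highest r. Levels of Il6st, Csf2ra, Il6ra, Ifnar1, Pim2 and Pim3 are given besides. A gene that the rule for likeness also named is not reported here.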

Additional observations from a re-analysis of the deposited data

Results flagged for a closer look

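In 3 of the 40 groups of 4 libraries examined, 1 library stood apart from the other 3 by Dixon's criterion (0.829 for 4 values). By chance about 1 group in 20 would do so. Socs2 stood at 0.330 CPM in resting CCR1/2+ve replicate 1, from 10 reads, against 0 to 0.0391 CPM in the others. Socs3 stood at 0.235 CPM in CCR1-labelled replicate 4, from 5 reads, against 0.0451 to 0.0462 CPM in the others. Jak1 stood at 249 CPM in resting CCR2+ve replicate 2, against 321 to 332 CPM in the others, and the lower Jak1 level of resting CCR1/2+ve cells passed the test without it as well.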

How the results depend on the processing

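At rest, 3 of the 10 genes were called, and 5, with Socs1 and Socs3 added, by DESeq2, with the replicate block, and with a GC content correction and the replicate block together. Leaving out each library in turn gave 2 to 5, with 5 only without resting CCR1/2+ve replicate 1. Stat5b lost its call there without resting CCR1/2+ve replicate 2 or 4 and without resting CCR2+ve replicate 1 or 3. CCR1-labelled against inflamed CCR1/2+ve libraries gave 5, and 8, with Socs1, Stat3 and Stat5a added, under a correction for GC content alone or for GC content and length. Socs1 lost its call between CCR1-labelled and inflamed CCR2+ve libraries without CCR1-labelled replicate 3 or 4, without inflamed CCR2+ve replicate 3 or 4, and with the block. The interaction gave 0, and 1, Stat3, with the replicate block alone or with the GC content correction. All other counts of the 10 genes called were within 1.5 times of the value reported. Some differences that were not called turned sign. Jak2 at rest was -0.0213 with all 19 libraries in 1 fit. With libraries left out, Pim1 at rest ran from -0.23 to 0.0314, Stat5b between the inflamed populations from -0.23 to 0.0347, and Jak1 between CCR1-labelled and inflamed CCR2+ve libraries from -0.14 to 0.0362. The Socs2 interaction was 0.0787 by DESeq2, 0.0571 with RLE scaling, 0.0937 with all 19 libraries, 0.33 with the replicate block, 0.0321 with the GC content correction and 0.345 with both, and it ran from -0.42 to 1.96 with libraries left out. The Stat5a interaction was 0.0046 with both and ran from -0.28 to 0.11 with libraries left out. The cause was not tested for any of these. Over all genes, the block moved the calls from 3149 to 4785 at rest, from 35 to 222 between the inflamed populations and from 74 to 222 for the interaction. Of the 10 genes it also took the call from Jak2 between inflamed and resting CCR1/2+ve libraries and between CCR1-labelled and inflamed CCR1/2+ve libraries, and it changed no other call. Depth limits Socs2, with 0 to 22 reads in a library, Cish at rest, with 5 to 18, Socs1 in the inflamed groups, with 2 to 28, and Socs3 in the CCR1-labelled libraries, with 1 to 5.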
